A study of Mus musculus with 6 samples.

Results

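Fibroblasts of the cecum and the large intestine, grouped here as the large bowel, were compared with fibroblasts of the proximal and distal small intestine. A barcode was counted as a fibroblast when it held 1000 to 7500 genes, 2500 to 40000 UMIs (molecular tags, 1 for each captured transcript) and under 10% mitochondrial UMIs, with at least 1 UMI of Pdgfra, at least 3 UMIs of Dcn and 0 UMIs of Prox1, Ptprc, Epcam and Myh11, which mark lymphatic endothelium, leukocytes, epithelium and smooth muscle. This left 61951 fibroblasts of 102534 cells, 16930 of them from the large bowel and 45021 from the small intestine. Proximal replicates 1 and 2 held 10760 and 8391, distal replicates 1 and 2 held 17186 and 8684, the cecum held 10503 and the large intestine held 6427.

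All 6 libraries came from Flare-TSLP mice, which carry tdTomato, a red fluorescent protein, in the Tslp locus as a reporter of that epithelial and stromal cytokine. Live tdTomato+ cells were sorted from the lamina propria, labeled with barcoded antibodies (hashtags) and captured in droplets, so the libraries were enriched for cells with reporter signal. Transcripts of tdTomato were counted in 133 to 766 fibroblasts of a library. No treatment is named for any library. Both sexes were used in the study, and sex and age were not used here. Each library held 3 hashtags that no source pairs with mice, so a library was treated as 1 sample, and the p-values measure the spread between these libraries, which may be technical.

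Gut fibroblasts lie beneath the epithelium and supply it with signals. Trophocytes near the crypt base secrete R-spondins and BMP antagonists that sustain stem cells, telocytes close to the epithelium secrete BMPs and noncanonical WNTs, and Pi16+ 'universal' fibroblasts lie deeper, around vessels. Mesenchymal cells also keep a record of their position along the body in the Hox genes, transcription factors that sit in clusters and are switched on in their order along the chromosome from head to tail.

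The cells carried fibroblast transcripts that the rule did not use. Col1a1, a chain of type I collagen, was at 3058 to 3636 CPM (counts per 1000000, here UMIs in the summed fibroblasts) in the small intestine. The cecum was at 7123 and the large intestine at 2706. Kept cells that were not fibroblasts by the rule held 931 to 2007, 4586 and 1845 CPM of it. Pdpn did not set the fibroblasts apart, at 195 to 231 CPM in the small intestine against 188 to 224 in those other cells. Col6a1 in the large intestine was at 1144 CPM in fibroblasts and 1198 in the other cells. Pdgfra, used by the rule, was at 512 to 603 CPM in the small intestine and 492 and 603 in the large bowel, and Dcn at 8178 to 12420 and 6766 and 7840. Cells left out for holding 1 or 2 UMIs of Dcn numbered 31 to 95 in a small intestinal library, 239 and 392 in cecum and large intestine, and cells at exactly 3 UMIs numbered 19 to 40, 48 and 96. The kept cells of the large intestine that were not fibroblasts by the rule held 772 CPM of Pdgfra, more than the 603 of its fibroblasts, whereas in the other 5 libraries they held 165 to 382. Summed depth lay between 65593824 and 144231288 UMIs, with medians per cell of 6933 in the cecum to 10048 in proximal replicate 2. Any pair of libraries shared 7 to 53 fibroblast barcodes. Both large bowel libraries carried the same set of hashtags as the small intestinal libraries numbered 1, and those numbered 2 carried another.

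Large bowel and small intestinal fibroblasts differed at 5753 of 19355 genes (29.7%) in edgeR's quasi-likelihood test on the summed UMIs, with Benjamini-Hochberg adjusted p under 0.05. Of all genes tested, 15.8% (3058) were higher and 13.9% (2695) lower in the large bowel, and 525 and 479 differed by at least 4-fold. Of these calls, 2145 higher and 887 lower ones stood below free RNA (barcodes with at most 100 UMIs) in the group where they were higher. Both large bowel libraries lay above all 4 small intestinal ones at 23.0% of genes and below them at 28.1%, in all 51.1%. The median log2 fold change over all genes was -0.014. Between the cecum and the large intestine the correlation of log2 CPM across genes was 0.979, below the lowest value among small intestinal libraries (0.986) and above the highest value between bowels (0.954).

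Restricting the libraries changed the number of calls. Within the shared hashtag set, a comparison of 2 against 2 libraries, there were 1588 calls (8.4% of 18898), 4.42% of genes higher and 3.98% lower. Its libraries are part of the full comparison, so a call within it is not an independent check. Against the distal libraries alone there were 836 calls (4.47%), 2.79% higher and 1.68% lower, and against the proximal ones 3301 (17.4%), 10.4% higher and 7.02% lower. Without the cecum there were 2463 calls (12.1% of 20302), 7.29% higher and 4.84% lower, and without the large intestine 4844 (24.0% of 20184), 12.2% higher and 11.8% lower. Without distal replicate 1 there were more calls, 6606 of 19151. Of the 167 named genes that were called with all 6 libraries, 91 were also called within the shared hashtag set, 74 against the distal libraries and 112 against the proximal ones.

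**Figure D1:**
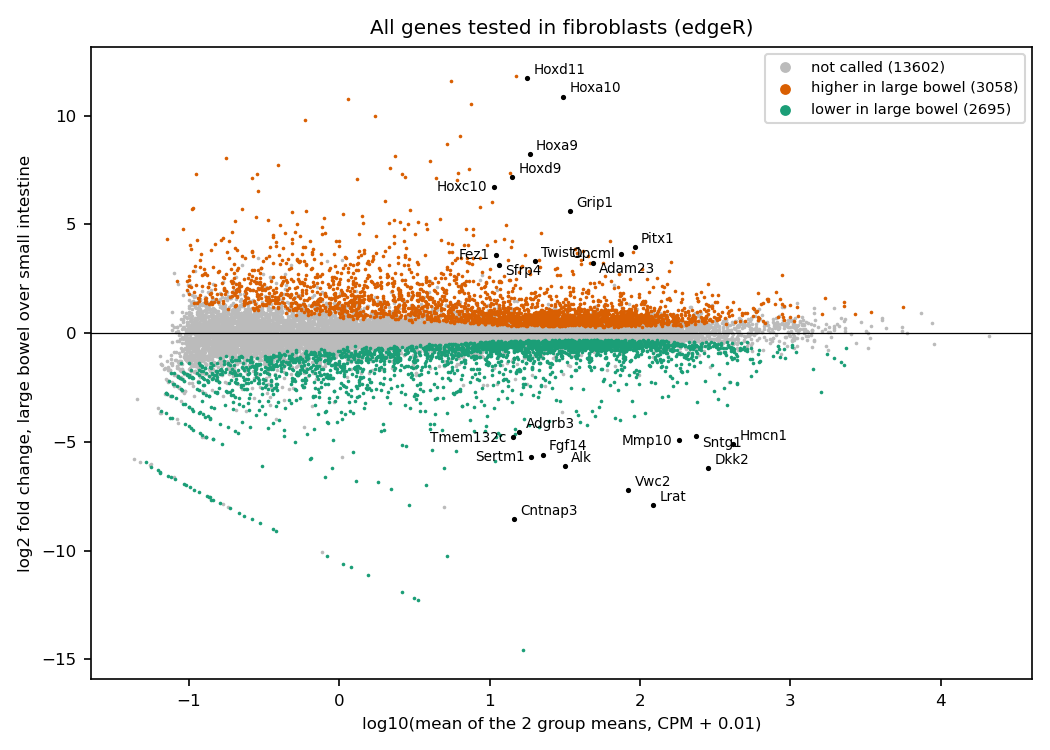
Log2 fold change of large bowel over small intestinal fibroblasts (y axis) against the mean of both group means on a log10 scale (x axis), 1 point per gene; orange points are the 3058 genes called higher, green points the 2695 called lower, gray points the rest, and black points the named leading genes. Among the labeled genes posterior Hox genes stand highest, and Cntnap3, Lrat, Vwc2 and Dkk2 lowest.

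Posterior Hox genes were present in large bowel fibroblasts and scarce in small intestinal ones. The 16 genes of paralog groups 9 to 13, the posterior end of the clusters, summed to 0.403, 0.263, 10.2 and 10.5 CPM in proximal replicates 1 and 2 and distal replicates 1 and 2, and to 211 and 248 CPM in the cecum and large intestine. Of 10 tested, 8 were higher and none was lower. The 23 genes of groups 1 to 8 ran the other way, with 385, 485, 390 and 505 CPM in the small intestine and 164 and 135 in the large bowel. Of 21 tested, 10 were lower, and the 3 that were higher, Hoxd3, Hoxd4 and Hoxd8, all belonged to the Hoxd cluster. Over the whole family of 39 genes, 31 were tested, 11 were higher (against 15.8% of all genes) and 10 lower (13.9%), with a median log2 fold change of -0.92. Within the shared hashtag set 11 were higher and 1 was lower, and against the distal libraries alone 10 and 1.

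Hoxd11 had the largest fitted change among the Hox genes tested. It gave 0, 0, 4 and 0 UMIs in the small intestinal libraries, in the order used above. In cecum and large intestine it gave 1611 and 3315, or 20.3 and 50.5 CPM. Its pooled level was 3582-fold higher in the large bowel (95% interval 1398 to 13150, exact, for counting error only). Hoxa10 was at 0.0101, 0, 0.0763 and 0.024 CPM in the small intestine and 47.1 and 76.0 in the large bowel (1814-fold, 1081 to 3319). Both were at or near 0 in all 4 small intestinal libraries and stood higher in the large intestine than in the cecum. Hoxa9 was at 0, 0.0525, 0.104 and 0.397 CPM against 44.2 and 29.2 (298-fold, 227 to 398), and Hoxd9 at 0.131, 0.137, 0.152 and 0.421 CPM against 36.1 and 19.8 (146-fold, 118 to 184). Hoxc10 was at 0, 0, 0.347 and 0.493 CPM against 34.1 and 8.20 (104-fold, 84.3 to 129). Unlike Hoxd11 and Hoxa10, these 3 genes stood higher in the cecum than in the large intestine. Hoxd10, Hoxa11 and Hoxc11 completed the group of 8. Hoxd10 gave 10 UMIs in the whole small intestine and was 535-fold higher in the large bowel (290 to 1117). Hoxa11 gave 1 UMI there against 1513 in the large bowel, a ratio of 4400 with an interval of 789 to 173900. Hoxc11 gave 0 UMIs in the small intestine and 323 in the large bowel. A count of 0 allows up to 0.00711 CPM over the small intestine, and Hoxc11 in the large bowel was 313-fold above that floor. Its exact 95% interval began at 253-fold.

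Other Hox genes marked 1 library or 1 region and were not called between the bowels. Hoxa13, the most posterior gene of its cluster, gave 1562 UMIs (23.8 CPM) in the large intestine, 0 in the cecum and 1 in the whole small intestine. Hoxd13 gave 323 UMIs (4.92 CPM) in the large intestine and 0 in the other 5 libraries, and Hoxd12 and Hoxb13 gave 11 and 5 UMIs there and 0 elsewhere. Detected in a single large bowel library, these genes were not tested. In the cecum 0 UMIs were counted. Against a floor of 3 counts there, Hoxa13 was 631-fold and Hoxd13 131-fold higher in the large intestine, with counting error left out. Hoxc8 and Hoxc9 stood higher in the distal than in the proximal small intestine. Hoxc8 was at 17.1, 9.38, 96.1 and 104 CPM in the small intestine and 7.04 and 1.59 in the large bowel, below every small intestinal library (edgeR log2 fold change -3.61 with a standard error of 1.24, adjusted p = 0.0627). Hoxc9 was at 0.0403, 0.0105, 9.37 and 8.92 CPM and 9.81 and 3.22 (adjusted p = 0.813 in edgeR), so that distal fibroblasts overlapped the large bowel.

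Anterior genes of the Hoxb cluster fell together. Hoxb3 was at 57.5, 81.5, 35.2 and 62.5 CPM in the small intestine and 3.86 and 15.9 in the large bowel (edgeR log2 fold change -2.53 with a standard error of 0.55, adjusted p = 0.017). Hoxb4 was at 37.5, 47.4, 33.1 and 36.2 CPM against 4.11 and 12.4, Hoxb2 at 26.2 to 29.8 CPM against 4.81 and 16.4, and Hoxb6 at 18.2 to 29.3 CPM against 0.931 and 6.75. Of 8 Hoxb genes tested 6 were lower, and Hoxb5 (adjusted p = 0.102) and Hoxb9 (0.777) were not called. In all 6 the cecum was the lowest library. Of these Hoxb4 alone was also called within the shared hashtag set. From the Hoxc cluster Hoxc4 was lower, as were Hoxa2 and Hoxa4 from the Hoxa cluster. In mm39 the tested genes span chromosome 6 from 52132570 to 52222806 (Hoxa), chromosome 11 from 96162150 to 96244838 (Hoxb), chromosome 15 from 102862862 to 102945278 (Hoxc) and chromosome 2 from 74509901 to 74578786 (Hoxd). All 6 Hoxd genes tested were higher.

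**Figure D2:**
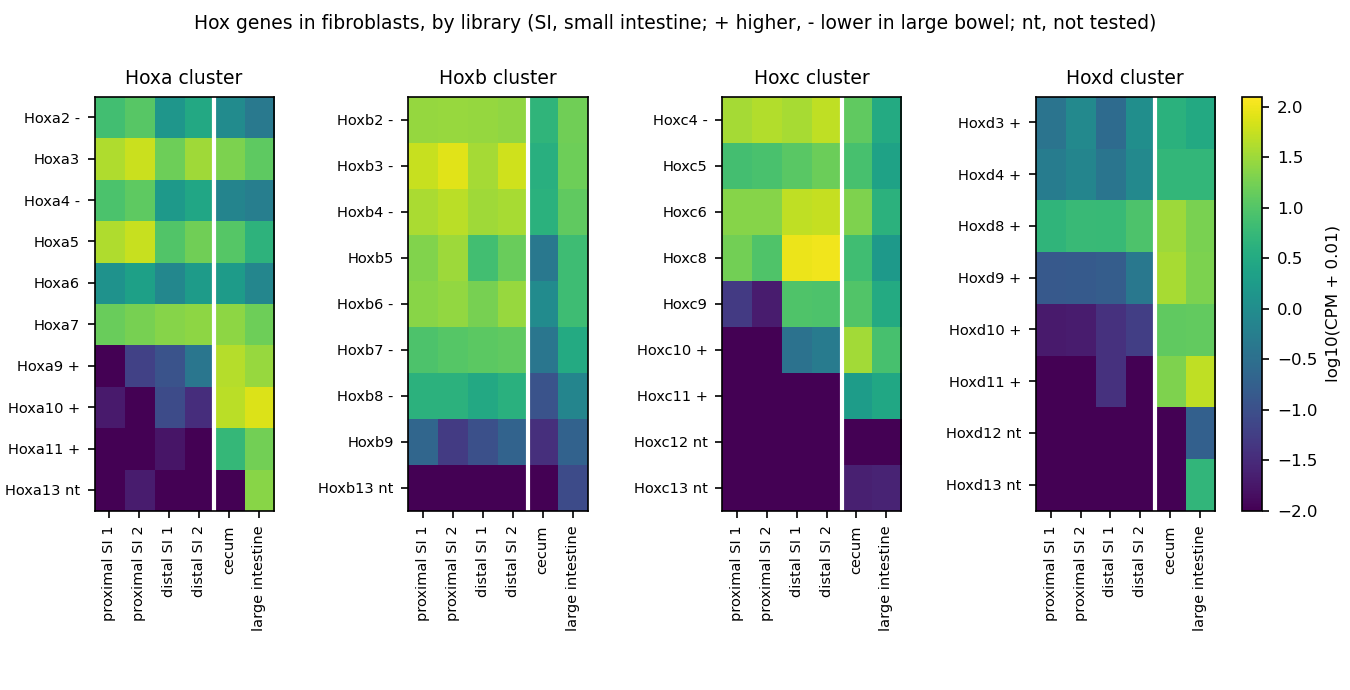
Level of Hox genes of paralog groups 2 to 13 (rows, in paralog order within each cluster) in the fibroblasts of each library (columns, small intestine left of the white line), as color on a log10 scale of CPM + 0.01; + and - mark genes called higher and lower in the large bowel and nt genes not tested. Hoxa9 to Hoxa11, Hoxc10, Hoxc11 and Hoxd9 to Hoxd11 are darker in the small intestine than in the large bowel, Hoxa13 and Hoxd13 are bright in the large intestine alone among the 6 libraries, and Hoxc8 is brightest in the distal small intestine.

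Other transcription factors of gut position changed in both directions, 13 higher (against 15.8% of all genes) and 3 lower (13.9%) of 29 tested (median log2 fold change 0.57), of which 10 and 2 were called within the shared hashtag set. Pitx1, a homeodomain factor of the hindlimb, was at 6.34, 6.68, 19.2 and 14.5 CPM in the small intestine and 186 and 159 in the large bowel (edgeR log2 fold change 3.94 with a standard error of 0.47, adjusted p = 0.00291). Its level was higher in the distal than in the proximal libraries and higher again in both large bowel ones. Zfhx4 was at 30.0 to 49.2 CPM against 152 and 109, and Hand2, a factor of gut mesenchyme, at 6.12 to 8.82 CPM against 17.4 and 16.9. Twist1, a helix-loop-helix factor of mesenchyme outside this list, was at 2.47 to 5.66 CPM against 40.0 and 32.6. Cofactors of the Hox proteins moved in both directions. Meis1 was lower at 494 to 582 CPM against 259 and 313 and Pbx3 at 323 to 398 CPM against 70.8 and 207, while Meis3 was higher at 12.8 to 15.2 CPM against 17.6 and 19.7. Pbx3 and Meis3 were not called within the shared hashtag set.

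The leading genes of each direction were those with the largest change that passed the test, did not overlap between the bowels, reached 20 CPM in the higher group and stood at or above free RNA there. Beside 5 Hox genes, Pitx1 and Twist1, the 12 higher ones were Grip1, Opcml, Fez1, Adam23 and Sfrp4. Grip1, a scaffold protein that binds glutamate receptors, was at 1.49, 1.39, 1.07 and 1.92 CPM in the small intestine and 64.7 and 68.3 in the large bowel (edgeR log2 fold change 5.59 with a standard error of 0.18, adjusted p = 9.99e-05). Opcml, a membrane-anchored cell adhesion protein, was at 7.50 to 14.7 CPM against 185 and 92.6. Grip1 varied little within either bowel, whereas Opcml stood higher in the cecum than in the large intestine. Fez1 was at 1.30 to 1.94 CPM against 23.1 and 17.2. Adam23, an adhesion protein of the ADAM family, was at 15.6, 18.3, 1.66 and 2.96 CPM against 36.1 and 138, so its level in the cecum was closer to the proximal small intestine than to the large intestine. Its adjusted p in edgeR was 0.0363, and it was not called when the cecum, the large intestine, proximal replicate 1 or distal replicate 2 was left out.

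Among the 12 leading genes lower in the large bowel, Cntnap3 had the largest fitted change, at 11.0, 23.8, 8.04 and 72.3 CPM in the small intestine and 0.101 and 0.0305 in the large bowel (edgeR log2 fold change -8.57 with a standard error of 1.45, adjusted p = 0.00809), and it was not called without the cecum or in limma-voom (adjusted p = 0.0643). Lrat came next among the 12. The enzyme esterifies retinol for storage, and its transcript was at 263, 403, 97.4 and 214 CPM against 1.36 and 0.473 (edgeR log2 fold change -7.93 with a standard error of 0.82, adjusted p = 0.00183). Vwc2, which encodes a secreted BMP antagonist, was at 184, 189, 137 and 154 CPM against 1.57 and 0.503, and Dkk2, a secreted WNT antagonist, at 458, 398, 673 and 709.8 CPM against 10.5 and 3.72. These 3 were abundant in every small intestinal library and near absent from both large bowel ones. Alk, a receptor tyrosine kinase, was at 128, 77.5, 26.0 and 17.7 CPM against 1.13 and 0.549, and Fgf14, an intracellular FGF homolog, at 66.4, 74.4, 19.4 and 16.2 CPM against 0.629 and 1.13. Both stood higher in the proximal than in the distal libraries. Hmcn1, a large matrix protein, was at 450.5 to 1204 CPM against 9.23 and 36.0, and Mmp10, a stromelysin, at 142 to 488 CPM against 1.51 and 20.7. Sertm1, Tmem132c, Sntg1 and Adgrb3 made up the rest, with log2 fold changes of -5.68 to -4.54. Within the shared hashtag set 22 of the 24 leading genes were called, all but Adam23 and Mmp10. The genes had been picked with these libraries included, so this is not an independent check.

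**Figure D3:**
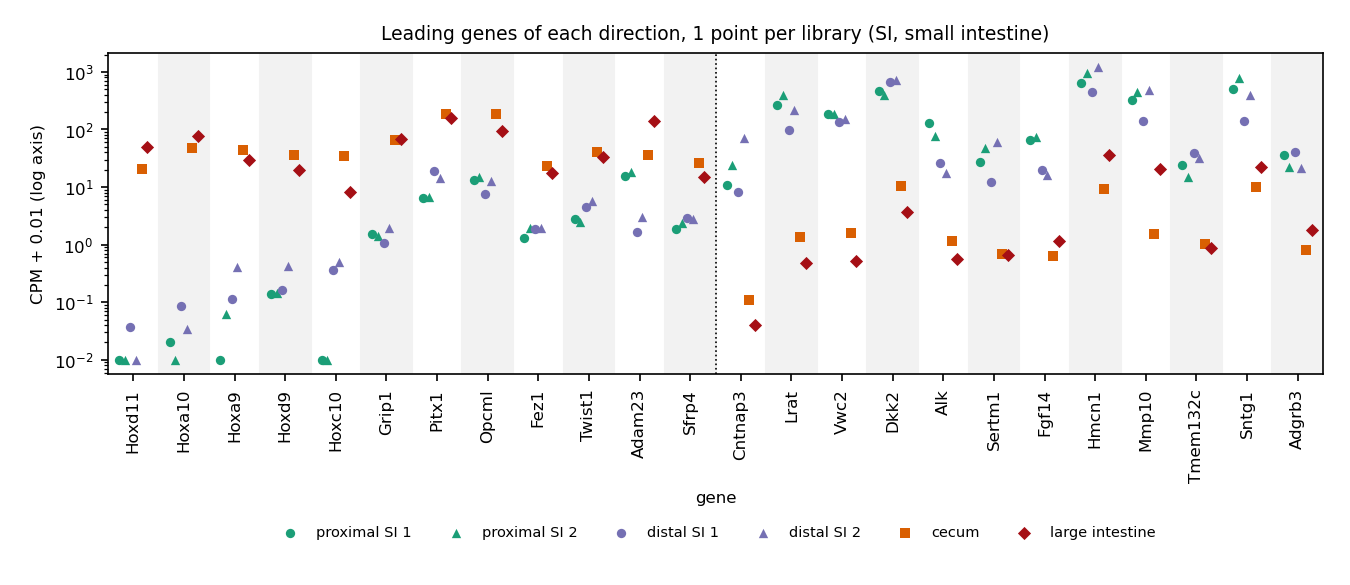
CPM + 0.01 on a log axis (y) of the 12 leading genes of each direction (x, higher in the large bowel left of the dotted line), 1 point per library and no averaging. Squares (cecum) and diamonds (large intestine) lie above all circles and triangles (small intestine) on the left and below them on the right. The rule that picked these genes required this.

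WNT ligands were higher at 6 of 10 genes tested (against 15.8% of all genes) and lower at 2 (13.9%), with a median log2 fold change of 1.91, and summed to 102 to 181 CPM in the small intestine and 383 to 425 in the large bowel. Wnt4, a noncanonical WNT, was at 45.5, 60.8, 23.2 and 62.1 CPM in the small intestine and 224 and 166 in the large bowel (edgeR log2 fold change 2.12 with a standard error of 0.33, adjusted p = 0.00633), and Wnt5b, another, was at 16.0 to 24.0 CPM against 62.0 and 101. The canonical ligand Wnt2b moved the opposite way, from 34.1, 36.5, 31.2 and 34.0 CPM to 21.2 and 21.6 (edgeR log2 fold change -0.59 with a standard error of 0.09, adjusted p = 0.00678). Both large bowel libraries were thus above the small intestinal ones for Wnt4 and below them for Wnt2b. Wnt2, at 0.61 to 1.90 CPM against 12.6 and 7.52, and Wnt10b, at 0.141 to 0.481 CPM against 3.96 and 1.52, were scarce in small intestinal fibroblasts. Other kept cells of the small intestine held 62.9 CPM of Wnt2 and its free RNA 25.0 CPM, more than the fibroblasts of either bowel. Wnt9a was lower at 8.33 to 12.1 CPM against 7.01 and 4.54. Wnt5a was at 17.3 to 44.9 CPM against 45.2 and 116 and did not pass (adjusted p = 0.0513). Of the 6 higher ligands 5 were called within the shared hashtag set, and neither Wnt2b nor Wnt9a was.

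R-spondins amplify WNT signals at the stem cell. Rspo2 was at 75.3, 127, 65.4 and 112 CPM in the small intestine and 8.23 and 4.13 in the large bowel (edgeR log2 fold change -3.83 with a standard error of 0.41, adjusted p = 0.00217), and Rspo3 at 143, 146, 83.4 and 96.3 CPM against 34.5 and 33.9 (edgeR log2 fold change -1.70 with a standard error of 0.25, adjusted p = 0.00536). Both were also called within the shared hashtag set. Rspo1, the other tested, was at 3.10 to 6.502 CPM against 4.0 and 5.08 and was not called, so 2 of 3 R-spondins were lower (against 13.9%). WNT inhibitors were higher at 3 (against 15.8%) and lower at 4 (13.9%) of 13, with a median log2 fold change of -0.50, and their summed level was 3073 to 3302 CPM in the small intestine and 893 to 960 in the large bowel. Most of that sum was Sfrp1, at 2391, 2244, 2168 and 1914 CPM against 649 and 684. Apcdd1, a membrane inhibitor, was at 154 to 191 CPM against 12.2 and 10.6, and Znrf3, which removes WNT receptors, at 43.7 to 54.6 CPM against 31.2 and 32.9. Sfrp1 and Apcdd1 were called within the shared hashtag set and Znrf3 was not. The inhibitors that were higher in the large bowel were all scarce in small intestinal fibroblasts, Sfrp2 at 0.0302 to 0.158 CPM against 25.5 and 3.34, Sfrp4 at 1.83 to 2.95 CPM against 26.1 and 14.9 and Wif1 at 0.0208 to 0.0503 CPM against 0.189 and 10.6. Sfrp2 stood highest in the cecum and Wif1 in the large intestine. Wif1 was not called within the shared hashtag set (adjusted p = 0.073 in edgeR) or in limma-voom (0.0856), and without the large intestine its log2 fold change was 2.47.

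Of 15 BMP and GDF ligands tested 4 were higher and 1 lower (median log2 fold change 0.67), a share called near the 29.7% of all genes. Bmp4 was at 227, 272, 242 and 310.4 CPM in the small intestine and 328 and 472 in the large bowel (edgeR log2 fold change 0.68 with a standard error of 0.16, adjusted p = 0.0234), a difference that was not called without the large intestine (0.45, adjusted p = 0.105), without proximal replicate 1 or 2 (0.0606 and 0.0621) or within the shared hashtag set (0.78, adjusted p = 0.0788). Bmp7, a telocyte BMP, was at 0.783 to 2.46 CPM against 6.47 and 47.3, and Bmp3 at 0.173 to 0.483 CPM against 1.76 and 31.9. In both the large intestine stood far above the cecum. Free RNA of the large bowel held 47.7 CPM of Bmp7 and 23.9 of Bmp3, above the means of its fibroblasts (26.9 and 16.8), and Bmp3 was not called within the shared hashtag set (adjusted p = 0.0511 in edgeR). Gdf6 was lower, at 20.7 to 41.5 CPM against 1.65 and 2.32. Among 14 BMP antagonists 5 were higher (against 15.8%) and 2 lower (13.9%), with a median of 0.28. Grem1, the antagonist that marks trophocytes, was at 692, 747, 688 and 519 CPM in the small intestine and 57.2 and 215 in the large bowel (edgeR log2 fold change -2.24 with a standard error of 0.49, adjusted p = 0.0167), below every small intestinal library, and it was not called within the shared hashtag set (-2.35, adjusted p = 0.0592). Fst, an activin and BMP binder, was at 2.15 to 6.03 CPM against 18.8 and 10.3, and the follistatin-like Fstl1 at 464 to 532 CPM against 770.0 and 713. Free RNA of the large bowel held 35.7 CPM of Fst, more than its fibroblasts. Of the 7 called antagonists 1 passed within the shared hashtag set.

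Retinoid genes changed in both directions. Beside Lrat, Aldh1a2 and Aldh1a3 were lower, which encode retinaldehyde dehydrogenases that make retinoic acid. Aldh1a2 was at 159.8, 189, 102 and 123 CPM in the small intestine and 49.9 and 28.7 in the large bowel (edgeR log2 fold change -1.77 with a standard error of 0.32, adjusted p = 0.0101). Aldh1a3 was at 182 to 396 CPM against 79.96 and 82.6. Rbp4, the retinol carrier of plasma, was higher at 2.94 to 6.05 CPM against 30.4 and 109, as was Dhrs3, which reduces retinaldehyde to retinol, at 42.2 to 60.9 CPM against 101 and 89.0. In all, 4 of 17 genes were higher (against 15.8%) and 4 lower (13.9%), with a median log2 fold change of -0.05, and 6 of these 8 were also called within the shared hashtag set.

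**Figure D4:**
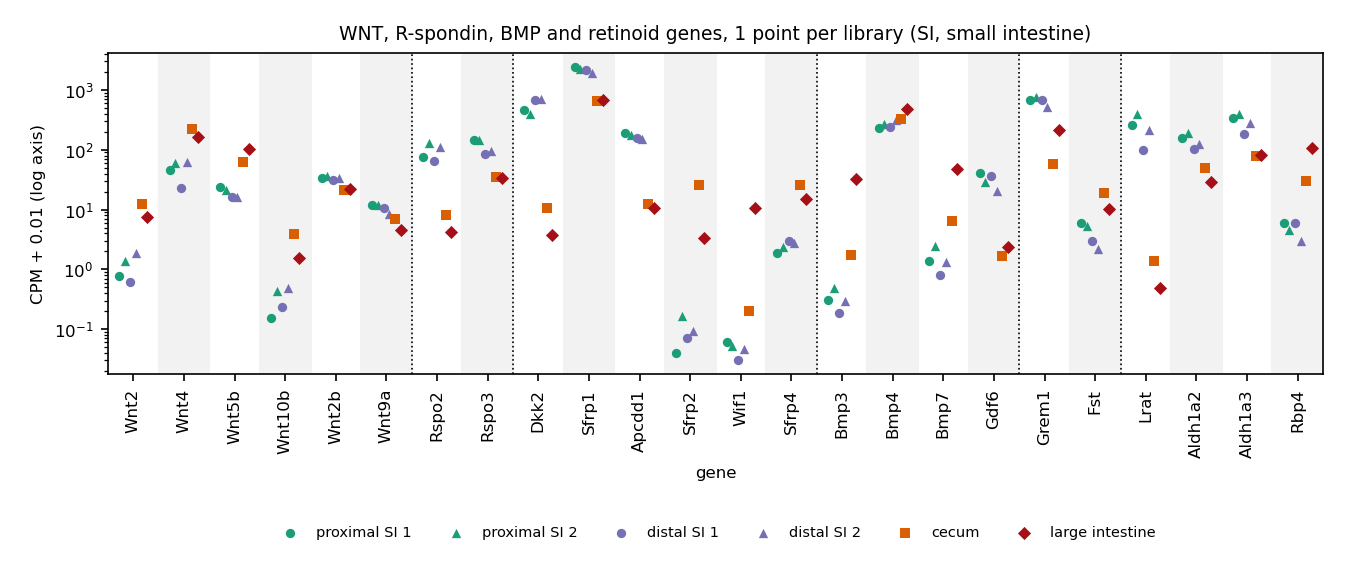
CPM + 0.01 on a log axis (y) of WNT ligands, R-spondins, WNT inhibitors, BMP and GDF ligands, BMP antagonists and retinoid genes (x, in this order and divided by dotted lines), 1 point per library. Rspo2, Dkk2, Apcdd1, Gdf6 and Lrat are lower in both large bowel libraries (squares, cecum; diamonds, large intestine) than in all 4 small intestinal ones, and Wnt2, Wnt4, Wnt10b and Rbp4 higher.

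Genes of the FGF, HGF and IGF systems, binding proteins included, were higher at 7 of 16 (against 15.8% of all genes) and lower at 1 (13.9%), with a median log2 fold change of 0.64. Igfbp4, an IGF-binding protein, was at 399 to 512 CPM against 1387 and 1128, and Igfbp6 at 79.3 to 148 CPM against 529.7 and 400.1. Fgf10, a mesenchymal ligand for epithelium, was at 46.4, 75.0, 67.6 and 131 CPM against 168 and 171 (edgeR log2 fold change 1.17 with a standard error of 0.33, adjusted p = 0.0362), with distal replicate 2 closest to the large bowel. It was not called in cells with Pi16, with Foxl1 or with none of Pi16, Cd34 and Foxl1, nor when the cecum, the large intestine, distal replicate 1 or proximal replicate 2 was left out (adjusted p = 0.0687 to 0.132 in edgeR). Fgf13, an intracellular FGF homolog like Fgf14, was lower, at 22.3 to 29.0 CPM against 2.87 and 2.55. The ErbB ligands gave 0 higher and 1 lower of 9 (median 0.29), the latter being Egf at 2.30 to 3.18 CPM against 1.08 and 1.30.

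Markers of the fibroblast subsets moved by subset. The shares of all genes to set beside their counts were 15.8% higher and 13.9% lower. In sums over cells, fewer cells of a subset and less RNA per cell cannot be told apart. Of 10 trophocyte markers 5 were lower, Grem1, Dkk2, Sfrp1, Rspo3 and Wnt2b, and 2 were higher (median log2 fold change -0.57), Cd81 at 72.4 to 176 CPM against 402 and 304 and Fgf7 at 31.2 to 49.3 CPM against 58.5 and 59.0. Fgf7 was near the threshold (adjusted p = 0.0478 in edgeR, 0.0234 in DESeq2 and 0.0501 in limma-voom). In edgeR it was not called within the shared hashtag set (adjusted p = 0.129) or with free RNA subtracted (0.096). Of 11 telocyte and subepithelial markers 6 were called higher and none lower (median 2.12). Both large bowel libraries lay above all small intestinal ones at 7 of the 11 (against 23.0% of all genes). They lay below them at 1 (28.1%), which was not called. Procr, which encodes CD201, was at 6.24 to 10.6 CPM against 34.6 and 111, and Sox6, a telocyte transcription factor, at 8.25 to 17.7 CPM against 34.4 and 300.1. Foxl1, the defining factor of telocytes, was at 1.49, 2.95, 0.451 and 2.37 CPM against 5.46 and 14.9. Sox6 and Procr stood highest in the large intestine, and free RNA of the large bowel held 142 CPM of Procr and 215 of Sox6. Of 9 universal fibroblast markers 8 were higher (median 2.24), among them Ly6c1 at 29.3 to 54.3 CPM against 259 and 289.6 and Cd248 at 82.7 to 103 CPM against 214 and 143. Pi16 itself was at 13.4 to 26.6 CPM against 67.1 and 42.4. Lamina propria markers gave 3 higher and 1 lower of 9 (median 0.38). These marker lists were chosen with earlier results of the same data known, so their counts are not an independent check. Postn, a matrix protein, was at 277, 267, 221 and 228 CPM in the small intestine and 1392 and 1622 in the large bowel (edgeR log2 fold change 2.67 with a standard error of 0.15, adjusted p = 0.000276), and the chemokine Ccl8 at 4.32 to 7.15 CPM against 77.4 and 62.4, while Vwc2 was lower. Within the shared hashtag set 4 of 7 trophocyte, 5 of 6 telocyte and subepithelial, 4 of 8 universal and 3 of 4 lamina propria calls passed.

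The share of fibroblasts with UMIs of a subset gene was counted after every cell was thinned to 2500 UMIs. With Pi16 were 2.85%, 2.42%, 4.41% and 2.48% of small intestinal fibroblasts and 10.0% and 5.77% of those of the cecum and large intestine. Cells with Prox1 but no Pdgfra or Dcn, which were not fibroblasts by the rule, held Pi16 in 0% to 0.943%. With Cd34 but no Pi16 were 50.4%, 49.5%, 57.4% and 46.1% against 40.0% and 38.0%. Of Prox1+ cells 1.71% to 4.72% held Cd34, and whether they make it themselves was not tested. With Foxl1 were 0.232%, 0.584%, 0.064% and 0.438% against 1.19% and 3.69%, and Prox1+ cells held it in 0% to 0.155% in the small intestine, 1.71% (2 of 117) in the cecum and 0% (0 of 106) in the large intestine. Cells with Ptprc, a leukocyte gene, but no Pdgfra or Dcn held Pi16 in 0% to 1.89% and Cd34 in 0% to 6.31%, and they held Foxl1 in 0.901% (1 of 111) in distal replicate 2, above its fibroblasts, and in 0% in the other 5 libraries. The thinned Foxl1 share of the cecum was thus not above its Prox1+ cells, and without thinning it was 3.26%, so no order of the cecum is read from it. Median depth before thinning was 7816 to 10048 UMIs in fibroblasts of the small intestine and 6933 and 9544 in those of the large bowel, and 5136 to 5825, 4467 and 6512 UMIs in the Prox1+ cells. Mean shares (± SD, n = 2 and 4 libraries) were 7.88% ± 2.99 in the large bowel and 3.04% ± 0.934 in the small intestine for Pi16, and 39.0% ± 1.44 and 50.9% ± 4.74 for Cd34 without Pi16. Differences were 4.85 and -11.9 percentage points, with p = 0.0667 in a two-sided exact permutation test for each, the smallest value that 15 assignments of 2 against 4 libraries allow. In cells with 1 hashtag they were 1.84 (p = 0.0667) and -3.40 (p = 0.8) in the same exact permutation test. Such cells were 5.39% to 20.3% of fibroblasts in a small intestinal library and 35.9% and 40.0% in cecum and large intestine. In cells not thinned the means were 14.9% against 6.69% for Pi16, 54.6% against 74.2% for Cd34 without Pi16 and 7.18% against 1.54% for Foxl1. Fibroblasts with signals of several hashtags, which can be doublets, made up 4.67% to 13.4% of a library and were kept.

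Differences of the leading genes were also present within groups of cells chosen by the same genes without thinning, and so more cells for Pi16, Cd34 and Foxl1 and fewer for none of the 3 than after thinning. Among cells with Pi16 the bowels differed at 2548 of 13904 genes (18.3%, with 9.09% higher and 9.23% lower), among cells with Cd34 but no Pi16 at 5014 of 18584 (27.0%, 14.5% and 12.5%), among cells with Foxl1 at 3219 of 12358 (26.0%, 13.9% and 12.1%) and among cells with none of the 3 at 5470 of 15885 (34.4%, 18.6% and 15.8%). All leading genes that could be tested kept their direction in every group. They had been picked for a large change in these same cells, so this is not an independent check. Those called were 23 of 24 with Pi16 (not Adam23), 24 with Cd34, 20 of 22 with Foxl1 (not Twist1 and Adgrb3, with Fez1 and Sfrp4 untested) and 23 with none (not Sfrp4). Dkk2 differed by log2 fold changes of -6.48, -6.54, -5.27 and -3.99 in the order of these groups, and Lrat by -7.78, -7.30, -11.76 and -8.93. Rspo2 differed by -5.65, -3.82, -3.27 and -2.004, and Hoxa10 by 8.89, 10.93, 11.04 and 11.61. Free RNA of the small intestine held 329 CPM of Dkk2 and that of the large bowel 5.16, and its part in the values within these groups was not tested. Wnt4 ran from 3.54 with Cd34 to 0.86 with none, and Fgf10 from 1.77 with Cd34 to 0.20 with none (adjusted p = 0.628 from edgeR) and -0.14 with Foxl1 (adjusted p = 0.752), with Pi16 short of the threshold (adjusted p = 0.0535).

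**Figure D5:**
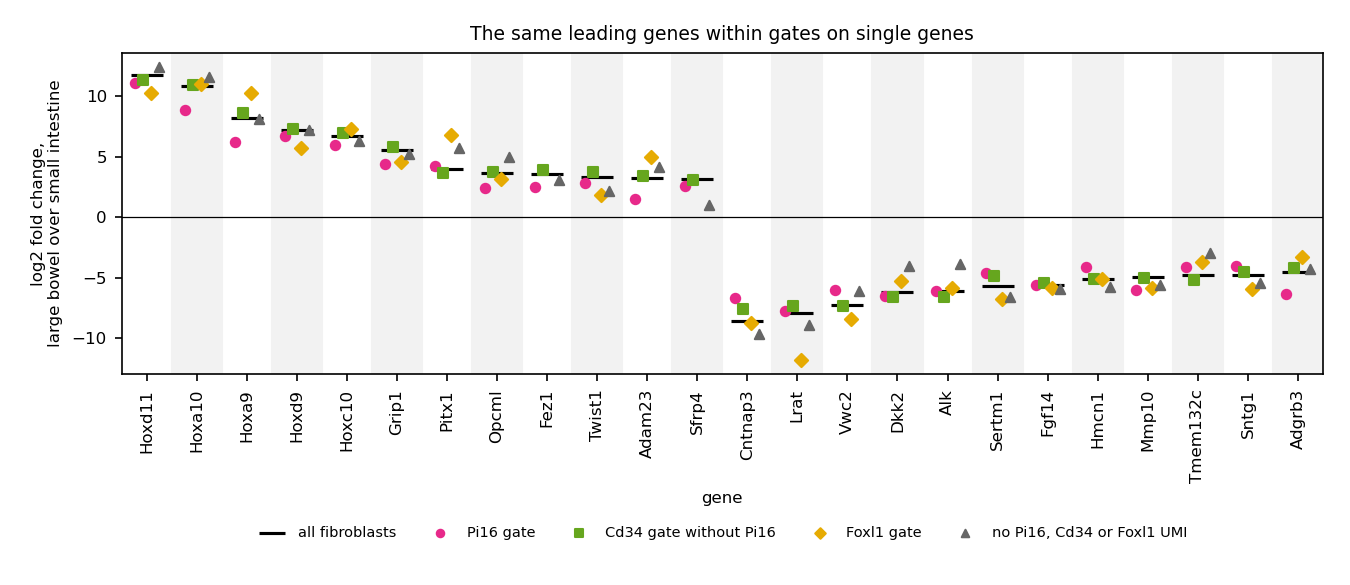
Log2 fold change of large bowel over small intestinal fibroblasts (y) of the 24 leading genes (x) in all fibroblasts (black bars) and within cells with Pi16, with Cd34 but no Pi16, with Foxl1, or with none of these UMIs (colored symbols). All symbols of a gene lie on the same side of 0, and Fez1 and Sfrp4 could not be tested with Foxl1. The genes were picked for a large change in these same fibroblasts.

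Collagens were higher at 9 of 32 genes (against 15.8% of all genes) and lower at none (13.9%), with a median log2 fold change of 0.30, and without the cecum 3 were higher (against 7.29% of all genes) and 2 lower (4.84%). Col4a5, a basement membrane collagen, was at 46.1, 32.8, 38.9 and 22.4 CPM in the small intestine and 187 and 187 in the large bowel (edgeR log2 fold change 2.48 with a standard error of 0.27, adjusted p = 0.00217). Matrix proteoglycans and glycoproteins gave 9 higher and 3 lower of 33 (median 0.41), in all a share near the 29.7% of all genes. Sparc, a collagen-binding protein, was at 3268 to 4353 CPM against 10280 and 5122. Its level in the large intestine was thus closer to the small intestine than to the cecum. Lama2, a laminin chain, was lower at 3101 to 3588 CPM against 993 and 1356. Proteases and their inhibitors gave 7 higher and 2 lower of 26 (median 0.25), again near that share, with Timp1, an inhibitor of metalloproteases, at 13.3 to 33.1 CPM against 38.0 and 60.4 and Mmp3, another stromelysin, at 89.4 to 132 CPM against 35.4 and 41.6. Of these matrix genes Sparc and Timp1 were not called within the shared hashtag set.

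Chemokines and their scavenging receptors gave 11 higher (against 15.8% of all genes) and 0 lower of 30 tested (median log2 fold change 0.88), and without the cecum 7 of 32 were higher (against 7.29% of all genes). Ackr3, a scavenger of Cxcl12, was at 40.3 to 64.0 CPM against 257 and 194, Ccl2, an attractant of monocytes, at 21.6 to 62.1 CPM against 81.1 and 132 and Cxcl12 itself at 643 to 801 CPM against 933 and 1226. Prostaglandin genes gave 8 higher and 0 lower of 16 (median 0.64), among them Ptgs2, the inducible cyclooxygenase, at 15.6, 14.5, 15.4 and 16.0 CPM against 53.3 and 58.8 (edgeR log2 fold change 1.94 with a standard error of 0.10, adjusted p = 0.000214). Within the shared hashtag set 4 of the 11 chemokine and 2 of the 8 prostaglandin genes were called, Ackr3 and Ptgs2 among them, while Ccl2 and Cxcl12 were not (adjusted p = 0.13 and 0.196 in edgeR), nor with hashtag set as a block (0.117 and 0.118) or without either large bowel library. Cytokines gave 3 higher and 1 lower of 21 (median 0.32), below the shares of all genes. Csf1, a macrophage growth factor, was at 117 to 133 CPM against 192 and 174, Mif at 72.9 to 105 CPM against 142 and 131 and Il11 at 1.73 to 2.65 CPM against 3.10 and 4.68, while Flt3l, a dendritic cell growth factor, was lower at 40.4 to 51.4 CPM against 22.9 and 19.3. Flt3l was called within the shared hashtag set, and Csf1, Mif and Il11 were not (adjusted p = 0.125, 0.137 and 0.0808 in edgeR). Complement genes gave 5 lower and 1 higher of 21 (median -0.22), in all a share near the 29.7% of all genes. C7, a part of the membrane attack complex, was at 503 to 949 CPM against 209.6 and 68.7. Interferon response genes gave 2 higher and 0 lower of 27 (median 0.19), also below those shares. These were Bst2 and Irf7, neither of them called within the shared hashtag set (adjusted p = 0.132 and 0.211 in edgeR).

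Tslp was at 1.75, 0.756, 2.70 and 1.13 CPM in the small intestine and 2.33 and 2.17 in the large bowel (edgeR log2 fold change 0.55 with a standard error of 0.49, adjusted p = 0.421), and its reporter tdTomato at 3.27, 1.54, 5.91 and 2.49 CPM against 6.94 and 5.43 (edgeR log2 fold change 0.95 with a standard error of 0.50, adjusted p = 0.178). Tslp and tdTomato overlapped between the bowels, and neither was called. Cells had been sorted on the reporter protein, so these levels do not compare unsorted fibroblasts. Glp2r, the receptor for the gut hormone GLP-2, was at 34.6, 37.8, 52.6 and 35.1 CPM against 123 and 107 (edgeR log2 fold change 1.58 with a standard error of 0.22, adjusted p = 0.00444). Both large bowel libraries lay above all small intestinal ones. Glp2r was also called within the shared hashtag set (1.41, adjusted p = 0.0357 in edgeR), whose libraries are part of the full comparison. Free RNA, measured in barcodes with at most 100 UMIs, held 67.3 CPM of Glp2r in the small intestine and 174 in the large bowel, above the fibroblasts in both. The part of free RNA in the difference was not tested. Of 13 hormone and neuropeptide receptors tested 2 were higher and 2 lower (median log2 fold change -0.12), near the shares of all genes (15.8% and 13.9%). Among the latter Tacr1, the substance P receptor, was at 3.92 to 26.4 CPM against 2.14 and 2.81, and it was not called within the shared hashtag set (adjusted p = 0.0997 in edgeR).

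Stress genes were highest in the cecum. Of 26 immediate early and heat shock genes 13 were higher (against 15.8% of all genes) and none lower (13.9%), with a median log2 fold change of 1.16. The list summed to 9183 to 13570 CPM in the small intestine and 34770 in the cecum. In the large intestine it summed to 12610 CPM, within the small intestinal range. Jun, an immediate early factor, was at 736 to 1141 CPM against 3688 and 1366. It was not called within the shared hashtag set (adjusted p = 0.143 in edgeR) or with hashtag set as a block (0.0878). Without the cecum 5 of the 26 were higher (against 7.29% of all genes) and without the large intestine 25 (12.2%), and none was lower in either. Free RNA was 2.90% to 3.82% of UMIs, and 2145 of the 3058 higher and 887 of the 2695 lower genes stood below the free RNA of the same libraries in the group where they were higher. After its subtraction there were 4885 calls of 18459. Y-linked Uty was detected in each library and lower in the large bowel (100.2 to 136 CPM against 64.9 and 88.4). Xist was at most 0.322 CPM. Of 5 sex-linked genes tested 3 were called lower (against 13.9% of all genes), and none within the shared hashtag set. The part of these values in the other differences was not tested.

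Markers of other cell types differed as well. The shares of all genes to set beside the counts below were 15.8% higher and 13.9% lower. Paneth cell genes were lower at 5 of 6, with Defa24 at 13.6 to 74.2 CPM in the small intestine and 0 in both large bowel libraries, and free RNA of the small intestine held 1940 CPM of it. Of 4 lymphatic markers tested 3 were lower (summed 19.9 to 124 CPM against 13.9 to 17.4), as were 4 of 5 of blood endothelium (53.3 to 126 against 20.4 to 27.3), 3 of 6 of immune cells (230 to 449 against 19.8 to 65.7, mostly Igha and Jchain) and 1 of 4 of enteric glia (3.27 to 4.88 against 1.94 to 2.99). Prox1, Ptprc, Epcam and Myh11 were at 0 by the rule. Smooth muscle genes were higher at 5 of 5 (107 to 204 CPM against 224 to 756). Acta2 was at 53.2 to 106 CPM against 93.4 and 448, and without the large intestine neither Acta2 nor Tagln was called (adjusted p = 0.286 and 0.223 from edgeR). None of the 5 was called within the shared hashtag set. Of 5 pericyte markers Rgs5 alone was called, at 544 to 980.4 CPM against 11.2 and 124, and it was not called within the shared hashtag set (adjusted p = 0.102 in edgeR) or with hashtag set as a block (0.0659). Epithelial markers gave 2 higher (Car1 and Muc2) and 2 lower (Fabp1 and Fabp2) of 10, with sums of 11.0 to 24.3 CPM against 4.98 to 19.9. Ano1 was the 1 gene called of 3 for interstitial cells of Cajal, and mesothelium gave none of 2. Of the fibroblast markers that the rule did not use (Col1a1, Col1a2, Lum, Pdpn and Col6a1), Pdpn and Col6a1 were higher and none was lower, and all 4 cell cycle genes were higher, summing to 5.21 to 9.49 CPM against 21.8 to 27.4. None of these 4 was called in cells with 1 hashtag (adjusted p = 0.418 to 0.915 in edgeR) or in cells with none of the 3 gate genes (0.133 to 0.726), and in the latter Top2a, Mki67 and Ccnb1 were lower in the large bowel by their fitted values. The part of these cells or of their free RNA in the differences was not tested.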

How the data were processed

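Raw UMI counts of every barcode over 33697 genes were deposited, made by the authors with Cell Ranger (8.1.0 per the labels, 8.0.1 per the file headers) on mm39 extended by tdTomato, with no filter on cells, doublets or ambient RNA. These counts were used as deposited. Fibroblasts were picked by the rule given in the report, and their UMIs were summed per library. Genes passing edgeR's filterByExpr (minimum count 10) entered the quasi-likelihood test with TMM scaling, 2 against 4 libraries, without a block, at a Benjamini-Hochberg adjusted p under 0.05. A standard error is the log2 fold change divided by the square root of F. Exact permutation over libraries was used for cell shares. Free RNA was taken from barcodes with at most 100 UMIs. Total UMIs per library were 109675337 to 206827504, and intervals cover counting error only.

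The members and the 37 gene lists were chosen with earlier results of these data known. Named genes were up to 12 per direction with the largest change among genes that passed, did not overlap between bowels, reached 20 CPM in the higher group and stood at or above free RNA there (predicted genes and clones left out), all Hox genes, Tslp, tdTomato and Glp2r, and up to 4 called members per direction of each list, by level. Pi16, Foxl1, Wnt5a, Rspo1, Col1a1, Pdgfra and Dcn were named in addition, after their values had been seen. Coordinates come from GENCODE vM39, matched by Ensembl ID. Alternatives were limma-voom, DESeq2, RLE scaling, no filter on low counts, a hashtag set block, libraries of 1 set or 1 region, free RNA subtracted (10% of each sum), hashtag and cell filters, thinning, gates and each library left out. Removal of cells with several hashtags (over 2.5 robust SDs) was added after seeing the data. Cells were not split by mouse. Some genes counted in the lists are not reported here by name. Tests ran in edgeR 4.0.16, DESeq2 1.42.0 and limma 3.58.1 under R 4.3.3, and sums in pandas 2.3.3, scipy 1.17.1, numpy 2.4.6 and matplotlib 3.10.9 under Python 3.11.15.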

Additional observations from a re-analysis of the deposited data

Results flagged for a closer look

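Within the 4 small intestinal libraries 31 items were examined, which were levels of genes and the percentages of cells in the marker gates. In 3 of them, all levels of genes, 1 library was set apart from the others. The gap to its neighbor, as a share of the whole range, was then beyond Dixon's 95% limit for 4 samples. Chance sets apart about 1 in 20 such groups. For Hoxd11 that share was 1.0, since distal replicate 1 gave 4 UMIs and the other 3 libraries 0. For Hoxd9 it was 0.925, with distal replicate 2 at 0.421 CPM and the others at 0.131 to 0.152. For Fez1 it was 0.934, with proximal replicate 1 at 1.30 CPM and the others at 1.89 to 1.94. All of these values lay below both large bowel libraries.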

How the results depend on the processing

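The number of genes called, 5753 in the test as reported, stayed within 1.5 times in limma-voom, DESeq2, RLE scaling, without the filter on low counts, with each region given its own mean, with free RNA subtracted, with cells of several hashtags removed, under stricter and looser cell filters, after thinning of the sums, and in the gates for Cd34 and for none of the 3 genes (4885 to 6828). It was 3344 with a replicate block, that is, hashtag set as a term. The replicate numbers are not stated to pair the libraries, and over 19355 genes the deviations of proximal and distal replicate 1 from their region means correlated at 0.327. It was 1588 in libraries of the shared hashtag set, 836 against the distal and 3301 against the proximal small intestine, 2569 in cells with 1 hashtag at 80% or more, 2548 in the Pi16 gate and 3219 in the Foxl1 gate, all with fewer libraries or cells. With each library left out it ran from 2463 to 6606, and it was 2463 without the cecum, 2934 without proximal replicate 1 and 3085 without proximal replicate 2. Calls on fewer libraries do not show that the other genes were alike.

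The difference between large bowel and small intestine in the share of cells was 8.18 percentage points for Pi16, -19.6 for Cd34 without Pi16 and 5.64 for Foxl1 in cells not thinned, and 1.84 for Pi16 and -3.40 for Cd34 without Pi16 in cells with 1 hashtag, where the share with none of the 3 turned from 5.19 to -1.14. With each library left out, the difference ran from 2.73 to 6.96 for Pi16, from -13.4 to -9.67 for Cd34 without Pi16, from 0.861 (without the large intestine) to 3.36 for Foxl1 and from 2.63 to 7.15 for none. The shares with none were 51.0% and 45.8% on average (p = 0.333, two-sided exact permutation test).

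Of 4408 comparisons of a named gene with an alternative, 730 lost the call, 27 gained it and in 11 a called gene turned direction. In another 17 a gene not called with all 6 libraries (Hoxa6, Hoxa7, Hoxb9, Hoxc9 or Tslp) changed sign. The log2 fold changes of called genes that turned were 0.014 for Wnt9a, -0.378 for Top2a, -1.19 for Mki67 and -0.771 for Ccnb1 in cells with none of the 3 gate genes, -0.141 for Fgf10, 0.161 for C4b, -0.232 for Des and -0.233 for Ccnb1 in the Foxl1 gate, -0.350 for Cxcl12 and -0.111 for Ptger1 in the Pi16 gate, and -0.174 for Mki67 in cells with 1 hashtag. The cause was not tested. The cecum and the large intestine had 1 library each, so the spread of the large bowel mixes both regions.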
